A study of Rattus norvegicus with 6 samples.

Results

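Among the long non-coding transcripts profiled in 6 tissues of the Brown Norway rat, 84 of 2455 shared a splice junction with an annotated gene without matching its structure, and these are described here by reference gene. They were chosen by the class code j that the deposited table gives each transcript, which compares exon structure and uses no expression value. Of 88 transcripts with that code, those of Plagl1, Irx2, Prune2 and Myl1 were left out. The 84 members belonged to 71 reference genes on 20 chromosomes. Their lengths ran from 267 to 14421 bases, with a median of 2314.5.

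The rats were male, of the inbred BN strain and 6 weeks old, and no treatment or genotype is named in the labels. The 6 samples, 1 for each tissue, were adrenal gland, hypothalamus, liver, left ventricle, outer medulla and cortex, the last with no organ named. Each tissue had 2 columns of FPKM, the number of sequenced fragments scaled by transcript length and library total, and each pair of values is written as column 1/column 2. Whether both columns came from separate animals is not stated. Each p-value sets differences between tissues against the spread between columns of a tissue, and that spread may be technical only. The column code read as hypothalamus was matched to it only because the other 5 codes fitted other tissues, and every statement on hypothalamus rests on that match. In bulk tissue, fewer cells of a type and less RNA per cell cannot be told apart.

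A transcript that shares a junction with a coding gene is usually read as an alternative form of that gene, made by skipping, retaining or extending part of it. Such forms can fail to encode the protein and still carry most of its exons. Because their reads overlap those of the other forms, a program that estimates FPKM divides the reads between them, and the share given to a form can change between libraries while the sum changes little. By symbol, 64 of the 71 reference genes matched RefSeq, and 63 of those were protein coding. The exception was Snhg11, a small nucleolar RNA host gene that is itself a long non-coding RNA. Genes are named below by the fixed rule given with the processing, and any further gene was singled out after its values were seen.

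The upstream sequences of 4 reference genes are shown because they span the patterns that follow. NUDT21 had the most even transcript, Zbtb7c had 4 members, 3 of them highest in adrenal gland, Cxxc4 had a member restricted to hypothalamus, and IL15 had its lowest level there. Each is the stretch of 250 bases before the gene start in RefSeq, build GRCr8, written 5′ to 3′, with CpG dinucleotides in capitals.
NUDT21, chr19:10980547-10980796, plus strand: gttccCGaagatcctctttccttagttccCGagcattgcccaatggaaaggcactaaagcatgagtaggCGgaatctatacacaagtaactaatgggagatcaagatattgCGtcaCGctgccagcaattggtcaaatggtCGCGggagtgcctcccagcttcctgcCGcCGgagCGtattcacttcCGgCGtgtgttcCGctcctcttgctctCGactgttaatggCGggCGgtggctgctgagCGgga
Zbtb7c, chr18:71716399-71716648, plus strand: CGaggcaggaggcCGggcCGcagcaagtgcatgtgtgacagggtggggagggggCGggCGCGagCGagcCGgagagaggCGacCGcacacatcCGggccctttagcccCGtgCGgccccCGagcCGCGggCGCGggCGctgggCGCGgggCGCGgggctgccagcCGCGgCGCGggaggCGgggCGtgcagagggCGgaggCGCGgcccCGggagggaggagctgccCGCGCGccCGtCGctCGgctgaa
Cxxc4, chr2:225338339-225338588, plus strand: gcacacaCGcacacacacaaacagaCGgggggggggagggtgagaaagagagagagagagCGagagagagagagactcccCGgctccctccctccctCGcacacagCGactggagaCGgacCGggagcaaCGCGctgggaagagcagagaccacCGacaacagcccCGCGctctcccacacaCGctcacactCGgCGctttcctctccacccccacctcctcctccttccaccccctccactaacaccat
IL15, chr19:42544456-42544705, plus strand: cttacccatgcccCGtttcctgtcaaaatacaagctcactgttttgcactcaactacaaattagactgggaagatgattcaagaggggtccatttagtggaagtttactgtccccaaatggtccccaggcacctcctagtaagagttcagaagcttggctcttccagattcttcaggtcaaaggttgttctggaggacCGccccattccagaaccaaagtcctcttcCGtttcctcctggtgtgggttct
The coordinates are of GRCr8, whereas all loci of transcripts below are of rn5, and a transcript may start elsewhere than its reference gene.

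These stretches held 17 CpG dinucleotides for NUDT21, 39 for Zbtb7c, 16 for Cxxc4 and 3 for IL15. An upstream sequence of a single start was found for 49 of the 71 reference genes. Their median was 17 CpG, against 8 over 21845 sequences of protein-coding genes and 5 over all 33463 sequences. Genes with several starts were left out only among the reference genes of members. The wider sets kept them and are thus not matched to the 49 in this. The letters GGGCGG, known as a GC box, occurred on either strand in 25 of 49 (51.0%), against 38.9% of those of protein-coding genes and 30.5% of all sequences. CCAAT occurred in 17 (34.7%, against 35.0% and 34.0%) and TATAAA in 6 (12.2%, against 12.1% and 12.9%). The median CpG count was 19 for 21 genes with a member detected in all tissues, 13 for 19 genes with members detected in 2 to 5 tissues, and 16 for 9 genes detected in at most 1. Across the 41 genes with a member at an FPKM of 1 or more, Spearman's rho between CpG count and the lowest tau of the gene was -0.08. Tau is 0 for an even transcript and 1 for one found in a single tissue. Genes are not independent replicates, and no test was made.

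A larger share of the members than of the whole table was detected in every tissue, and levels were mostly low. At a mean FPKM of 0.5 or more, 75 of 84 were detected in some tissue, 27 in all 6 and 15 in only 1. The share detected in all tissues was 32.1%, against 5.78% over all transcripts, 4.59% of those with no reference gene, 8.41% of those with another overlap, 5.22% of those that match a reference and 2.12% of those antisense to an exon. By tissue, outer medulla and adrenal gland had 52 detected members each, left ventricle 51, liver and cortex 48 each, and hypothalamus 41. Hypothalamus had the fewest as deposited. When all tissues were rescaled to the same median it had 52, against 46 in outer medulla.

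**Figure D1:**
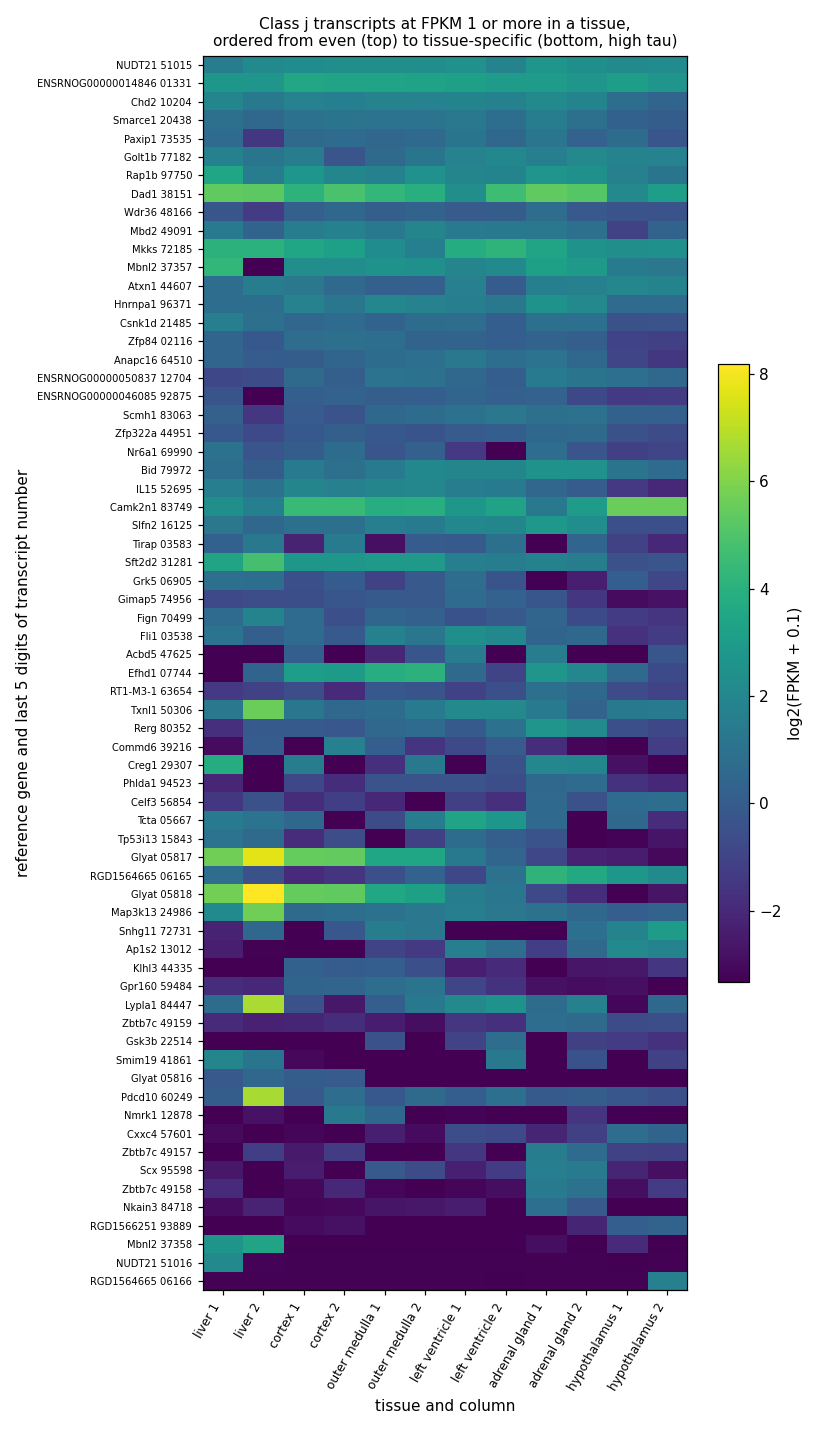
Log2(FPKM + 0.1) of the 67 members whose mean FPKM reached 1 in a tissue, with 1 row for each transcript and 1 column for each FPKM column. Rows run from even (NUDT21, tau 0.111, at the top) to specific to a tissue. Upper rows have like colour across the columns, and single bright cells in lower rows are members present in 1 column.

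Tau, computed on log2(FPKM + 1) of the tissue means, had a median of 0.586 over the 67 members at an FPKM of 1 or more. It was 0.825 over all 1269 such transcripts and 0.568 over 44 that match a reference. These are descriptions of the classes, and no test of the difference between classes was made.

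**Figure D2:**
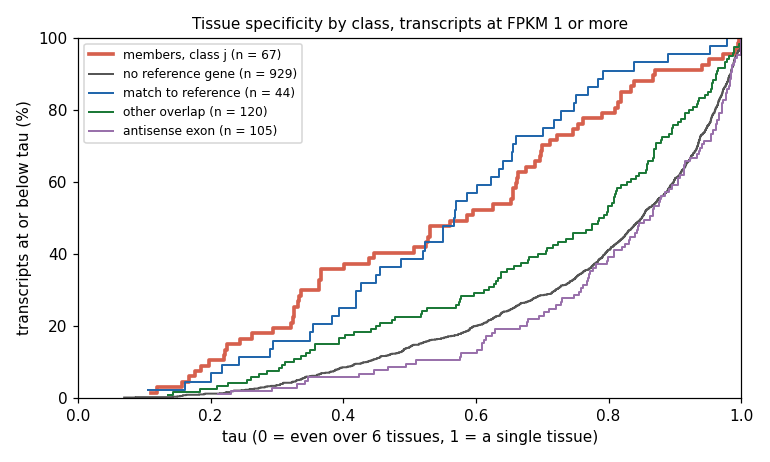
Cumulative percent of transcripts (vertical axis) at or below each tau (horizontal axis) for 5 classes, at an FPKM of 1 or more. The curve of the members (median 0.586) lies to the left of that of transcripts with no reference gene (median 0.850).

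The most even member came from NUDT21, which encodes a subunit of cleavage factor Im and helps choose where a pre-mRNA is cut and polyadenylated. TCONS_00051015 (rn5 chromosome 19, 11360457 to 11445119) had 2.74/4.25 FPKM in liver, 4.81/5.09 in cortex, 5.07/4.99 in outer medulla, 5.60/3.49 in left ventricle, 6.30/5.27 in adrenal gland, and 4.51/4.63 in hypothalamus. The tissues overlapped, and liver column 1 was the lowest value. No difference among tissues was called (adjusted p = 0.365, limma F-test). The transcript TCONS_00101331 of ENSRNOG00000014846, a gene with no symbol in the table (chromosome 8, 67030637 to 67066853), ranged from 6.29 in adrenal gland column 2 to 11.3 in cortex column 1 (adjusted p = 0.0713). Smarce1 encodes a subunit of the SWI/SNF chromatin remodelling complex, and its TCONS_00020438 (chromosome 10, 86912861 to 86934447) ranged from 0.964 in hypothalamus column 2 to 2.74 in adrenal gland column 1 (adjusted p = 0.0784).

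Chd2 encodes a chromatin remodelling enzyme of the CHD family. Its TCONS_00010204 (chromosome 1, 135782014 to 135911815) had 3.75/2.44 FPKM in liver, 3.35/3.02 in cortex, 3.45/3.37 in outer medulla, 3.52/3.22 in left ventricle, 4.33/3.50 in adrenal gland, and 1.71/1.27 in hypothalamus. Both hypothalamus values lay below all others, and the transcript differed among tissues (adjusted p = 0.0213, limma F-test). When the columns were rescaled, hypothalamus stood only 0.0067 on the log2 scale below outer medulla.

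Whether members varied among tissues was tested with a moderated F-test in limma on log2(FPKM + 0.1), adjusted over all 1269 transcripts whose mean FPKM reached 1 in a tissue. Of 67 members tested, 41 (61.2%) differed among tissues at an adjusted p below 0.05, against 81.1% of all transcripts tested. At an unadjusted p below 0.05 it was 43, against 81.8% of all. Among the 41, adrenal gland was highest for 14, liver for 12, hypothalamus for 5, cortex for 4, outer medulla for 3 and left ventricle for 3. The lowest tissue was hypothalamus for 19 of the 41, against 34.5% of all differing transcripts. Rescaling raised hypothalamus by 0.85 and 0.92 on the log2 scale and moved the other columns by -0.41 to 0.12. Hypothalamus was then lowest for 11 of 41 and highest for 13. Counts by highest tissue, and the rescaled counts, were not made over all differing transcripts. They are thus not read as a trait of the members.

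The most abundant members were few. Dad1 encodes a subunit of the oligosaccharyltransferase that attaches sugars to proteins in the endoplasmic reticulum. Its TCONS_00038151 (chromosome 15, 36679090 to 36699071) had 42.1/38.4 FPKM in liver, 17.2/29.4 in cortex, 19.7/14.8 in outer medulla, 5.04/24.3 in left ventricle, 41.1/35.3 in adrenal gland, and 4.18/8.31 in hypothalamus. Liver and adrenal gland lay above every other column, and left ventricle differed 4.74-fold between its columns on the FPKM + 0.1 scale. It differed among tissues (adjusted p = 0.0293, limma F-test). At 267 bases it was the shortest member, and a level per length is least certain for such short transcripts.

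Mkks encodes a chaperonin-like protein needed for the complex behind Bardet-Biedl syndrome. TCONS_00072185 (chromosome 3, 136347549 to 136366162), of 379 bases, had 16.9/16.2 FPKM in liver, 10.7/8.80 in cortex, 4.72/2.99 in outer medulla, 13.7/17.9 in left ventricle, 10.5/5.92 in adrenal gland, and 4.98/5.38 in hypothalamus. Outer medulla lay below cortex without overlap.

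Camk2n1 encodes an inhibitor of the calcium/calmodulin kinase CaMKII. TCONS_00083749 (chromosome 5, 160625418 to 160628579) had 46.2/46.4 FPKM in hypothalamus, 21.2/21.7 in cortex, 14.4/14.8 in outer medulla, 6.62/9.94 in left ventricle, 5.26/3.03 in liver, and 2.45/8.0 in adrenal gland. Hypothalamus lay above all other columns without overlap, and the transcript differed among tissues (adjusted p = 0.00158, limma F-test). The log2 ratio of hypothalamus to cortex was 1.11, and the call of restriction was not met (adjusted p = 0.117). It was met after rescaling (log2 ratio 2.17, adjusted p = 0.0102), without adrenal gland column 1 (adjusted p = 0.0247) and without adrenal gland column 2 (adjusted p = 0.0232). In adrenal gland the higher value was in column 2, in which the 91 transcripts of the table that were high in hypothalamus had a median level of 21.1% relative to hypothalamus, against 4.02% in column 1. The part of that overlap in single values was not tested.

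Efhd1 encodes a calcium-binding protein of mitochondria. TCONS_00107744 (chromosome 9, 94084432 to 94131503) had 14.4/16.9 FPKM in outer medulla, 8.26/7.68 in cortex, and 6.25/3.95 in adrenal gland. Left ventricle had 1.49/0.419 and hypothalamus 1.43/0.509. In liver it was near 0 in column 1 and 1.22 in column 2. Outer medulla was highest, without overlap with any tissue, and the transcript differed among tissues (adjusted p = 0.0099, limma F-test).

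Glyat encodes a mitochondrial enzyme that joins glycine to acyl groups and is known from liver and kidney. Its 3 members lay at its locus (chromosome 1, 236219825 to 236241073). TCONS_00005817 had 51.8/208 FPKM in liver, 43.5/42.3 in cortex, 10.9/10.7 in outer medulla, 2.41/1.27 in left ventricle, 0.438/0.109 in adrenal gland, and 0.0873/0.0178 in hypothalamus. TCONS_00005818 followed the same order, with 53.8/291 in liver, 44.0/41.7 in cortex, and 11.8/9.16 in outer medulla. Both differed among tissues (adjusted p = 3.5e-05 and 3.8e-05, limma F-test), and both were below 0.5 in adrenal gland and hypothalamus. The call of restriction to liver was not met (adjusted p = 0.179 and 0.118). The level in liver relative to cortex rested on liver column 2. Without column 1 the log2 ratios were 2.27 and 2.76 and both were called (adjusted p = 0.0209 and 0.00259). Without column 2 they were 0.27 and 0.33 (adjusted p = 0.766 and 0.61).

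TCONS_00005816, the third form of Glyat, was a minor one. It had 0.824/1.27 FPKM in liver and 0.962/0.873 in cortex, and it was at or near 0 in all other columns, outer medulla included, where the other forms had 9.16 to 11.8. Its ratio to each of the others differed among tissues (adjusted p = 0.0048 for both, limma F-test over 485 pairs of transcripts of 1 reference gene, of which 5.77% were called). Of 9 pairs of members tested, these were the 2 called. The log2 ratio to TCONS_00005817 was -5.40 in cortex, -6.53 in liver and -6.77 in outer medulla. In outer medulla and left ventricle TCONS_00005816 was listed at 0 in both columns. The ratio there was set by the added 0.1 and the level of the other form. In adrenal gland and hypothalamus both forms were low enough for the added 0.1 to draw the ratio towards 0, and that enters the test. No pair was called without both liver columns, when 5 pairs were tested, or without adrenal gland column 2 and hypothalamus column 1.

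Restriction to 1 tissue was called when the highest tissue exceeded each of the other 5. Of the 67 members, 9 (13.4%) were restricted at an adjusted p below 0.05 in limma, against 45.7% of all 1269 transcripts tested. Adrenal gland had 5 (background 9.3%), liver 2 (background 13.3%), hypothalamus 2 (background 5.75%), and cortex, outer medulla and left ventricle 0 each (background 6.46%, 2.84% and 8.04%). At an unadjusted p below 0.05 the total was 11, against 51.9% of all. The order of the tissues turned with the scaling. With columns rescaled to the same median, 13 of 69 members were restricted (50.6% of all), 7 in hypothalamus (13.8% of all), 4 in adrenal gland (7.61%) and 2 in liver (13.5%). The 5 added, all in hypothalamus, were Camk2n1, Celf3, ENSRNOG00000050701 and a pair of RGD1566251 forms, and TCONS_00049159 of Zbtb7c was lost. Only 1 member, TCONS_00037358 of Mbnl2, stood 5-fold above every other column in both of its columns on the FPKM + 0.1 scale, against 20.4% of all transcripts.

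**Figure D3:**
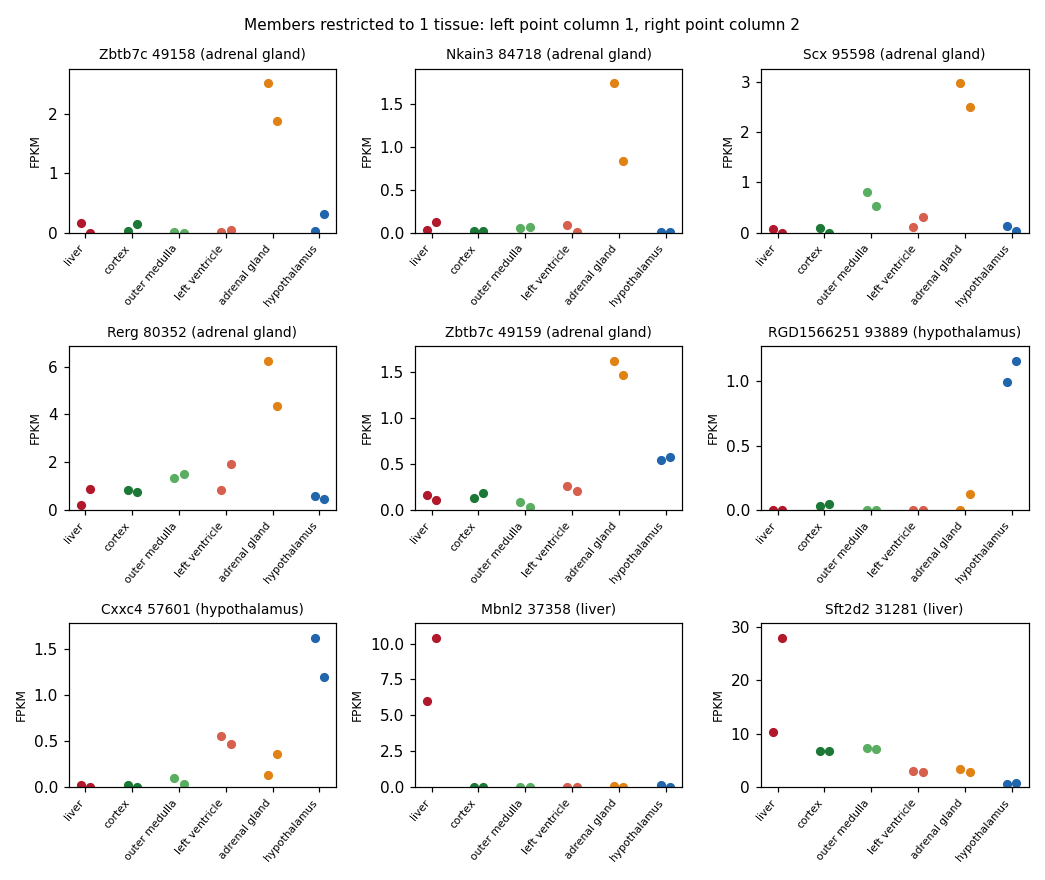
FPKM (vertical axis, linear, from 0) of the 9 restricted members in each tissue, with column 1 as the left and column 2 as the right point. In every panel both points of the named tissue lie above all others, as for TCONS_00037358 of Mbnl2 with 6.02/10.4 in liver.

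The largest ratio among the 9 was that of a form of Mbnl2. The gene encodes a muscleblind-like RNA-binding protein that controls alternative splicing. TCONS_00037358 (chromosome 15, 109043290 to 109201594) had 6.02/10.4 FPKM in liver and at most 0.169 in the other 10 columns. It stood 48.8-fold above the next tissue on the FPKM + 0.1 scale (adjusted p = 4e-05, limma). The other Mbnl2 form, TCONS_00037357, had 19.3 in liver column 1, with column 2 listed at 0. In the other tissues it had 5.11/4.86 in cortex, 5.85/5.35 in outer medulla, 3.72/4.26 in left ventricle, 9.07/7.15 in adrenal gland, and 2.58/2.23 in hypothalamus. Summed over both forms, liver had 25.3 and 10.4 against 9.10/7.15 in adrenal gland, and the sum was not restricted (adjusted p = 0.0679).

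The other liver-restricted member was TCONS_00031281 of Sft2d2, a gene of a family involved in vesicle transport to the Golgi (chromosome 13, 88307454 to 88334834). It had 10.4/27.9 FPKM in liver, 6.72/6.76 in cortex, 7.30/7.16 in outer medulla, 2.94/2.80 in left ventricle, 3.27/2.71 in adrenal gland, and 0.612/0.714 in hypothalamus. The lowest liver value was above the highest elsewhere, 7.30 in outer medulla column 1. The log2 ratio was 1.22 (adjusted p = 0.0409, limma), and the call was lost in 14 alternatives, among them each single column left out other than liver column 1.

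In the adrenal gland, Zbtb7c gave 2 of the 5 restricted members. It encodes a transcription factor with a BTB domain and zinc fingers, and 4 members lay at its locus (chromosome 18, 71136511 to 71590024). TCONS_00049158 had 2.52/1.89 FPKM in adrenal gland and at most 0.305 elsewhere (9.83-fold over hypothalamus, adjusted p = 0.00325, limma). TCONS_00049159 had 1.62 and 1.46 against 0.540/0.577 in hypothalamus (2.49-fold, adjusted p = 0.00864). After rescaling the log2 ratio of TCONS_00049159 was 0.49, against 1.32 as deposited, and the call was lost (adjusted p = 0.219). TCONS_00049157 had 2.84/1.54 in adrenal gland and did not pass (adjusted p = 0.0607), and TCONS_00049161 reached 0.361 only in hypothalamus column 1. The sum over the 4 was 6.99/4.90 in adrenal gland, 1.32/1.24 in hypothalamus, and at most 0.640 in the other tissues, and it was restricted too (adjusted p = 0.0058). The 3 forms at an FPKM of 1 or more reached that level only in adrenal gland, so the filter fixed their shared highest tissue. TCONS_00049161, which did not pass it, had 0.00186/0 in adrenal gland. No ratio between the 3 was called (adjusted p from 0.390 to 0.979, limma F-test). Many of their values elsewhere were near the added 0.1, so this does not show equal patterns. The log2 ratio of TCONS_00049158 to TCONS_00049159 was 0.47 in adrenal gland and -1.50 in hypothalamus.

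Nkain3 encodes a membrane protein that interacts with the sodium pump. TCONS_00084718 (chromosome 5, 38775940 to 39455983), of 11975 bases, had 1.74/0.840 FPKM in adrenal gland and at most 0.122 elsewhere (7.72-fold over liver, adjusted p = 0.000654, limma). Scx encodes scleraxis, a transcription factor of tendon and other connective tissue. TCONS_00095598 (chromosome 7, 117432776 to 117525973) had 2.97/2.49 in adrenal gland, 0.817/0.526 in outer medulla, and at most 0.311 elsewhere (3.72-fold, adjusted p = 0.0182). Rerg encodes a small GTPase of the Ras superfamily linked to oestrogen and growth inhibition. TCONS_00080352 (chromosome 4, 235326466 to 235434169) had 6.26/4.36 in adrenal gland, against 1.90 in left ventricle column 2 as the highest other value (3.48-fold over outer medulla, adjusted p = 0.0317). For these 3, adrenal gland lay above every other column without overlap. The call of Rerg was lost in 11 alternatives, among them each single column left out other than the liver columns and left ventricle column 2. That of Scx was lost without outer medulla column 2 or adrenal gland column 1. Without adrenal gland column 1, Nkain3 fell below the level needed for the test.

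With adrenal gland column 2 and hypothalamus column 1 both left out, 4 members were restricted, 3 of them among the 9. Mbnl2 TCONS_00037358, Nkain3 and RGD1566251 TCONS_00093889 kept their calls, and these were also the 3 called with a pseudocount of 0.01. Without both columns the adjusted p was 0.0503 and 0.0611 for the Zbtb7c forms, 0.075 for Scx, 0.101 for Rerg, 0.0511 for Cxxc4 and 0.0957 for Sft2d2, with fewer columns in the fit.

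RGD1564665 had the highest adrenal level after Dad1. Its TCONS_00106165 (chromosome 9, 7319662 to 7502218) had 18.0/12.5 FPKM in adrenal gland, 6.71/4.46 in hypothalamus, and at most 1.92 in the other columns. Adrenal gland and hypothalamus did not overlap with each other or with the rest, and the transcript differed among tissues (adjusted p = 0.000719, limma F-test). It was not restricted (log2 ratio 1.44, adjusted p = 0.119). A second form of the same gene, TCONS_00106166, had 3.14 in hypothalamus column 2 and at most 0.0047 in every other column.

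In hypothalamus, RGD1566251 had 4 members at its locus (chromosome 7, 20419797 to 20646227). TCONS_00093889 had 0.992/1.16 FPKM in hypothalamus, 0.126 in adrenal gland column 2 and at most 0.0434 elsewhere (7.81-fold over adrenal gland, adjusted p = 0.000203, limma). The other 3 were below the level needed for the test. They had 0.535 and 0.847, 0.811 and 0.747, and 0.525/0.268 in hypothalamus. The sum over the 4 was 2.86/3.02 in hypothalamus and 0.680 in adrenal gland column 2, and it was at most 0.144 in the remaining columns (adjusted p = 0.004). Without hypothalamus column 2, TCONS_00093889 fell below the level needed for the test. All 4 forms were therefore highest in hypothalamus, and adrenal gland column 2 was the next highest for the sum.

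Cxxc4 encodes a CXXC zinc finger protein that inhibits Wnt signalling. TCONS_00057601 (chromosome 2, 257941013 to 257966554) had 1.62/1.20 FPKM in hypothalamus, 0.557/0.473 in left ventricle, 0.126/0.356 in adrenal gland, and at most 0.0982 elsewhere. Hypothalamus did not overlap with the others (2.44-fold over left ventricle, adjusted p = 0.0334, limma). The call was lost in 8 alternatives, among them each single column of cortex, left ventricle and hypothalamus left out.

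Snhg11, the non-coding host gene, was high in hypothalamus too, but its columns scattered. TCONS_00072731 (chromosome 3, 160733863 to 160743375) had 3.48/8.22 FPKM in hypothalamus and 2.76/2.23 in outer medulla. Cortex was near 0 in column 1 and had 0.763 in column 2, liver had 0.120 and 1.39, adrenal gland column 1 was listed at 0 and column 2 had 1.76, and left ventricle was at or near 0. No difference among tissues was called (adjusted p = 0.0569, limma F-test).

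Members at other genes of RNA processing were mixed. The list of splicing and 3′-end factors took 7 members of Mbnl2, NUDT21, Hnrnpa1, Celf3 and Dhx35, and all 7 transcripts of the table at genes of that list were members. Of 6 tested, 3 differed among tissues (81.1% of all transcripts) and 1 was restricted (45.7% of all). Hnrnpa1 encodes an abundant nuclear RNA-binding protein, and its TCONS_00096371 (chromosome 7, 142647001 to 142653837) had 5.75/4.16 FPKM in adrenal gland, against 1.54/1.55 in hypothalamus and 1.68/1.67 in liver (adjusted p = 0.0063, limma F-test). Celf3, a CELF family gene known from brain, had 1.52/1.68 in hypothalamus and 1.44/0.616 in adrenal gland for TCONS_00056854, with at most 0.613 elsewhere (adjusted p = 0.00721).

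The list of zinc finger genes took 7 members, of Zfp84, Zfp322a, Zbtb7c and Zbtb17. Of 5 tested, 4 differed among tissues and 2, both of Zbtb7c, were restricted, shares close to those of all transcripts (81.1% and 45.7%). Zfp84 TCONS_00002116 (chromosome 1, 88824172 to 88839187) had 0.400/0.349 FPKM in hypothalamus and from 0.786 to 1.79 in the other columns, without overlap (adjusted p = 0.006, limma F-test). Zfp322a TCONS_00044951 ranged from 0.473 in liver column 2 to 1.47 in adrenal gland column 2 and was not called (adjusted p = 0.0611). The list of neuronal genes took Camk2n1 alone. No member lay at a gene of the lists for hepatocytes, striated muscle, glia, adrenal cells, kidney tubule, ion transport, translation, ubiquitin or mitochondria.

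The tissue labels were set against the transcripts of the whole table at genes of the tissue lists, which share exons with, overlap or oppose the marker genes and are not their annotated mRNAs. Of 7 at genes of the neuronal list, 6 were highest in the columns read as hypothalamus, with 4.04/4.41 FPKM for Sox2 TCONS_00055701 and at most 0.891 elsewhere. Most of the 6 were forms of Sox2 alone, with single transcripts of Dlx6 and Camk2n1, so they are not 6 separate genes. Of 6 at genes of the hepatocyte list, 3 were highest in liver, with 42.3/137 for Akr1c19 TCONS_00047225. Adrenal gland was highest for 2, of Fga and Cyp11b3, and cortex for 1, of Cyp4x1. Fga TCONS_00056419 was listed at 0 in both liver columns and had 1.42/1.16 in adrenal gland. TCONS_00098844 of Cyp11b3, a steroid hydroxylase gene taken by both the hepatocyte and the adrenal list, had 60.5/44.4 in adrenal gland and at most 5.89 elsewhere. At the gene of the kidney salt transporter Slc12a1, TCONS_00067610 had 36.5/36.6 in outer medulla, 12.2/14.7 in cortex and at most 1.5 elsewhere. The 1 transcript of the muscle list, of Myl1, was not highest in left ventricle, and the list for glia had 0.

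No member passed the mirrored test for a tissue below each of the other 5 (0 of 67, limma, against 0.552% of all transcripts tested). At an unadjusted p below 0.05 there were 14 (7.88% of all transcripts), of which 11 were lowest in hypothalamus (5.75% of all). After rescaling there were 9 of 69 (5.25% of all), 4 of them in hypothalamus (1.83% of all). The smallest p was that of IL15, which encodes a cytokine of natural killer and memory T cells. TCONS_00052695 (chromosome 19, 34532033 to 34598811), of 14421 bases, had 0.273/0.154 FPKM in hypothalamus, 1.3/0.907 in adrenal gland, and from 1.86 to 3.89 in the other 8 columns. The 3 levels did not overlap, and hypothalamus lay 1.95 below adrenal gland on the log2 scale (adjusted p = 0.0524). With the column number as a replicate block IL15 was called (adjusted p = 0.0346). After rescaling the gap was 1.25 (adjusted p = 0.191). Without both liver columns, a setting added after seeing the data, 5 members were called in hypothalamus (limma). They were IL15 (adjusted p = 0.0137), Sft2d2, Slfn2, Fli1 and Zfp84. The share of all transcripts called in that fit was not taken, so the count is not read as a trait of the members.

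Slfn2, Gimap5 and Fli1, looked at after their values were seen, were also lowest in hypothalamus. They were picked from the 11 above, which also took in Zfp84, Chd2, Csnk1d, Mbd2, Anapc16, Sft2d2 and a Glyat form. No list of genes of immune or blood cells was set. RT1-M3-1 TCONS_00063654 was not lowest in hypothalamus (0.531/0.411 FPKM, against 0.271/0.382 in liver). Slfn2 encodes a schlafen protein known from T cells, and TCONS_00016125 had 0.602/0.606 FPKM in hypothalamus, 7.01/4.96 in adrenal gland, and from 1.36 to 4.10 elsewhere. Gimap5 encodes a GTPase of lymphocytes, and TCONS_00074956 had 0.0263/0.0458 in hypothalamus, 1.51/1.12 in left ventricle, and from 0.248 to 0.869 elsewhere. Fli1 encodes an ETS transcription factor of endothelial and blood cells, and TCONS_00103538 had 0.209/0.297 in hypothalamus, 5.17/4.10 in left ventricle, and from 0.828 to 3.23 elsewhere. In none of these did hypothalamus overlap with another tissue. Slfn2, Gimap5 and Fli1 differed among tissues (adjusted p = 0.000319, 0.00155 and 0.000735, limma F-test). The mirrored test for a tissue below each of the others called none of them (adjusted p = 0.0887, 0.0887 and 0.1, limma). After rescaling, the log2 gap to the next tissue was 0.49 for Slfn2, 1.66 for Gimap5 and 0.96 for Fli1.

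Between outer medulla and cortex, compared because the earlier account of the table took them as its most alike tissues, 1 of 44 members tested with limma differed (2.27%), against 21.4% of 604 transcripts. This was Mkks TCONS_00072185, lower in outer medulla by a log2 difference of -1.35 (SE 0.33, adjusted p = 0.0229). By direction, 0 members were higher in outer medulla (6.95% of all) and 1 in cortex (14.4% of all). At an unadjusted p below 0.05 there were 4 members (33.4% of all), with both abundant Glyat forms at -1.98 and -2.03 (adjusted p = 0.0758 for both) and Fli1 at 1.17 (adjusted p = 0.0786). Without both liver columns, 5 members were called: Mkks, these 3 and Scmh1. The share of all transcripts called in that fit was not taken. The spread is pooled over tissues, and the liver columns had the highest share of transcripts apart by 4-fold. Whether that bears on these calls was not tested. Without cortex column 2 or outer medulla column 2 the count was 0 and without cortex column 1 Mkks was not called.

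Klhl3 and Gpr160, also chosen after their values were seen, were high in both of these tissues. Klhl3 encodes an adaptor of a ubiquitin ligase that acts on WNK kinases in the distal nephron, and TCONS_00044335 (chromosome 17, 9127152 to 9226414) had 1.1/0.927 FPKM in cortex, 0.969/0.608 in outer medulla, and at most 0.256 elsewhere (adjusted p = 0.000572, limma F-test). Gpr160 encodes an orphan receptor, and TCONS_00059484 (chromosome 2, 135800029 to 135857719) had 1.23/1.23 in cortex, 1.63/2.06 in outer medulla, and at most 0.432 elsewhere (adjusted p = 6.5e-05). Both tissues lay above the rest without overlap. Neither was called restricted (adjusted p = 0.593 for Klhl3 and 0.263 for Gpr160), though Gpr160 was with a pseudocount of 1.

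Columns of a tissue differed on some members. In liver, 9 of 39 members at a mean FPKM of 1 or more differed at least 4-fold between columns (23.1%), against 19.9% of 473 transcripts. In cortex it was 4 of 39 (10.3%, against 4.45%), in outer medulla 2 of 39 (5.13%, against 3.70%), in left ventricle 3 of 42 (7.14%, against 7.61%), in adrenal gland 1 of 43 (2.33%, against 7.18%) and in hypothalamus 1 of 25 (4.0%, against 4.94%). The members' share was thus above that of all transcripts in 3 tissues and below it in the other 3. In liver, column 2 stood over 10-fold above column 1 on the FPKM + 0.1 scale for the 4 members at that level that follow. Efhd1 (given above) did so too, by 13.2-fold, but its liver mean of 0.611 was below that level. Pdcd10, a gene known from cerebral cavernous malformation, had 0.950/101 in liver for TCONS_00060249. Lypla1, an acyl-protein thioesterase, had 1.55 and 106 for TCONS_00084447, the third most abundant member in liver on the mean. Map3k13 had 4.48 and 51.4 for TCONS_00024986, and Txnl1 had 2.32 and 47.7 for TCONS_00050306. None of Pdcd10, Lypla1, Map3k13 and Txnl1 was called restricted to liver (adjusted p from 0.0526 to 0.614, limma). From the steps between low values, liver column 2 held about 3873000 fragments, the fewest of the 12 columns.

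**Figure D4:**
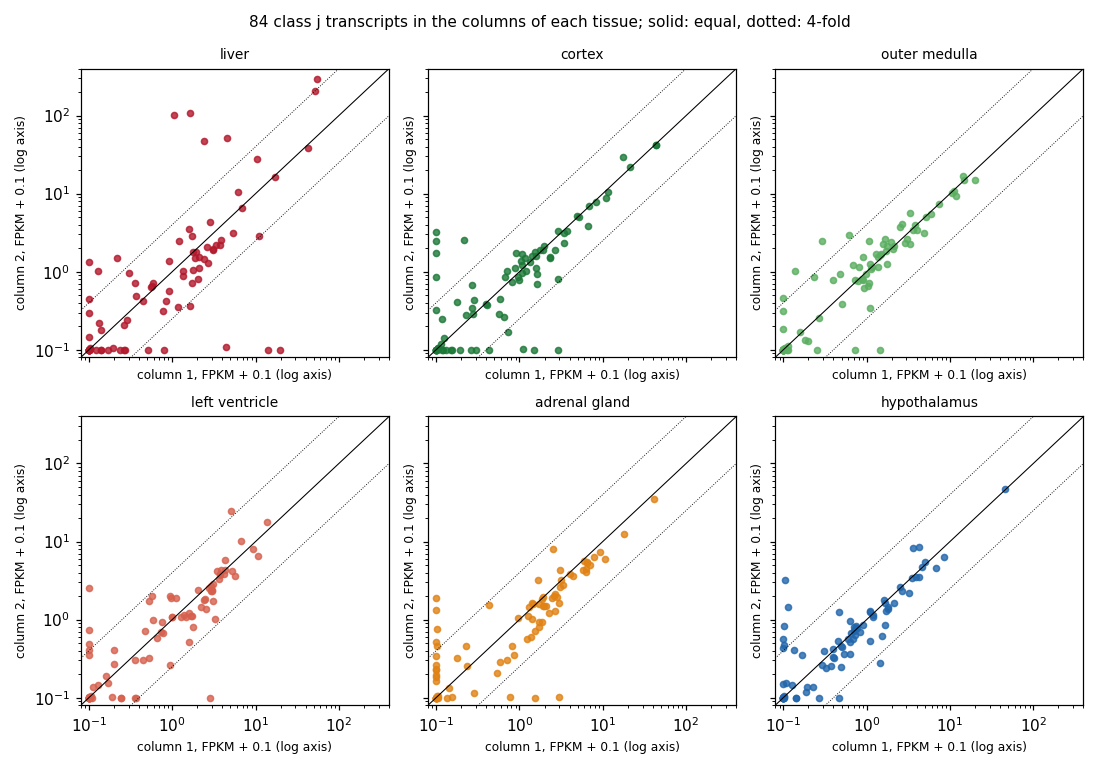
Column 1 (horizontal) against column 2 (vertical) of each tissue for the 84 members, FPKM + 0.1 on log axes, with the solid line at equality and dotted lines at 4-fold. In liver, points for Pdcd10 and Lypla1 lie far above the upper dotted line, and points on an axis edge are listed at or near 0 in 1 column.

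At the extreme, 14 of 84 members had an FPKM of 1 or more in 1 column and below 0.1 in the other column of a tissue. Counted by tissue, they were 4 in liver, 5 in cortex, 1 in outer medulla, 2 in left ventricle, 4 in adrenal gland and 2 in hypothalamus. Among all 2455 transcripts the counts were 100, 35, 35, 59, 30 and 23 in that order. A transcript could count in several tissues, and the share in any tissue was not taken over all transcripts. For Golt1b, a gene of Golgi transport, TCONS_00077180 had 1.66 only in cortex column 2, where the other form, TCONS_00077182, had 0.717, against 2.82 in column 1. The sum of both forms was 2.82/2.37 in cortex, closer between the columns than either form. For NUDT21, TCONS_00051016 had 4.27 only in liver column 1 and at most 0.00785 elsewhere. The sum with the even form was 7.0/4.26 in liver and lay between 3.49 and 6.30 in the other tissues. There the sum was no closer between the columns than the even form alone. Creg1, with 1 member, had 13.9 in liver column 1 with column 2 listed at 0, and no sum could be formed.

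**Figure D5:**
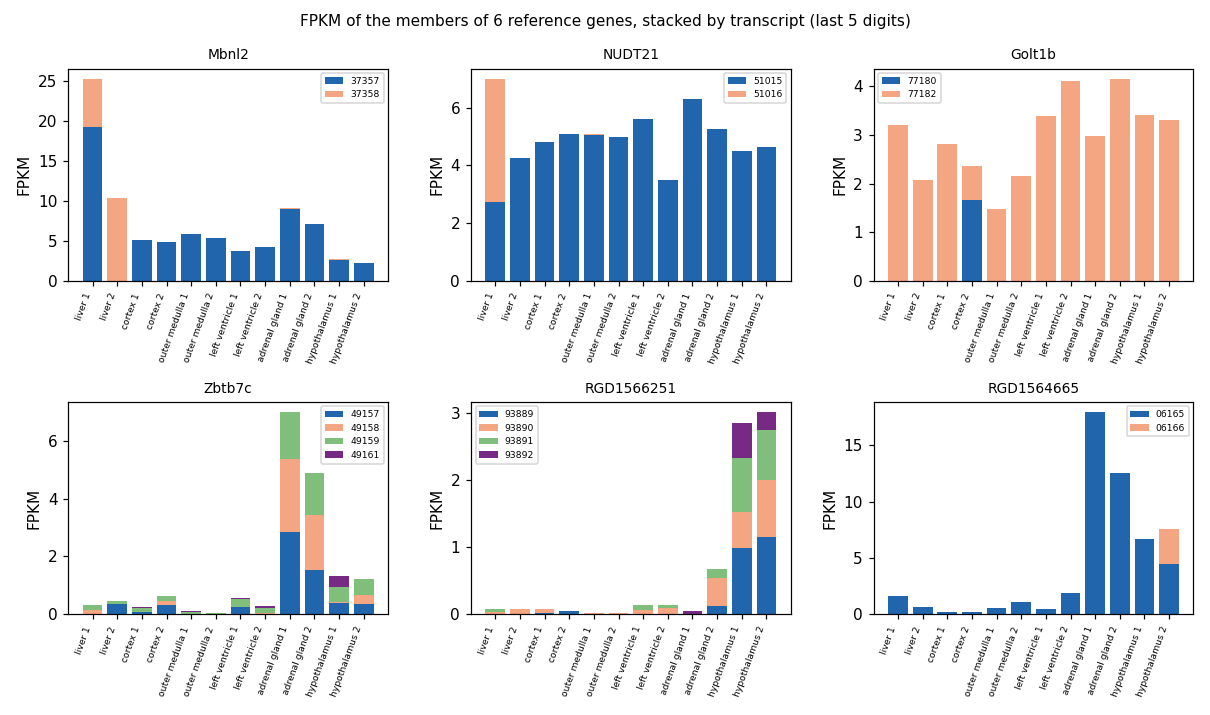
FPKM (vertical axis, from 0) of the members of 6 reference genes in the 12 columns, stacked by transcript. Golt1b and NUDT21 have a second form in 1 column each and sums of 1.48 to 7.0. The forms of RGD1566251 are highest in hypothalamus, and those of Zbtb7c in adrenal gland except for TCONS_00049161.

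Summed over members, Golt1b and NUDT21 did not differ among tissues (adjusted p = 0.101 and 0.827, limma F-test). There were 8 reference genes with more than 1 member, which held 21 members. Among these, the sum of Zbtb7c was restricted to adrenal gland and that of RGD1566251 to hypothalamus (adjusted p = 0.0058 and 0.004, limma). Over all 60 reference genes with a sum at an FPKM of 1 or more, 37 differed among tissues and 7 were restricted. For single transcripts the shares were 81.1% and 45.7% of all 1269 tested. The share over all features of the fit with sums was not taken.

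The 84 members held 3.34 to 10.7% of the summed FPKM of a column, the highest share being in liver column 2.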

How the data were processed

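Total RNA of 6 tissues, extracted with TRIzol and sequenced from TruSeq Stranded libraries per the labels' protocols, is given as 1 table of FPKM values that the authors deposited, with 2 columns for each tissue. Its columns are those of a Cufflinks tracking table, per the file headers. Base calls came from bcl2fastq 2.15.0 and the build was rn5, per the submitters' processing notes. The aligner, the annotation and the criteria for calling a transcript non-coding were not given in the sources used here. Transcript lengths (another unit, in bases), loci and class codes are the deposited ones, and whether coordinates count from 0 or 1 is not stated. Of 2458 entries, 3 without values were left out. Counts were not used here. The steps between low values gave whole fragments within 0.15 for 84.0 to 90.9% of values at an assumed fragment length of 140 bases, which implied from 3873000 fragments (liver column 2) to 31820000 (hypothalamus column 2). A floor of 3 fragments over 1 kb is then 0.775 and 0.0943 FPKM. These depths are estimates and cover counting error only.

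Tests used limma 3.58.1 in R 4.3.3 on log2(FPKM + 0.1), with all 12 columns, a trend of variance with mean and Benjamini-Hochberg adjustment at 0.05 over every transcript whose mean FPKM reached 1 in a tissue. Log2 fold changes are on that scale and understate changes of low transcripts. For restriction and depletion the largest p of the 5 pairwise contrasts was taken. The pipeline was tested on simulated data. Tables were handled with pandas 2.3.3 and NumPy 2.4.6, and figures drawn with matplotlib 3.10.9. Upstream sequences, from RefSeq, were searched on both strands.

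Named transcripts were Snhg11 and NUDT21, the 3 most abundant members of a tissue, up to 4 restricted members of a tissue with the largest ratio, the 4 of lowest tau, up to 3 depleted members of a tissue, members past the threshold between outer medulla and cortex, the 3 genes with most members, the 5 pairs of forms with the smallest p, and up to 3 members of each gene list. The members, lists and tests were chosen with earlier results of these data known. Alternatives were the pseudocount, the filter, rescaling, leaving out columns, a block for the column number and a fold rule with no test. Leaving out both liver columns was added after seeing the data.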

Additional observations from a re-analysis of the deposited data

How the results depend on the processing

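The number of members that differed among tissues (41) stayed between 32 and 46 under the alternatives other than single columns left out, and between 33 and 50 with each column left out in turn. The number of restricted members (9) was 3 with a pseudocount of 0.01, 15 with a pseudocount of 1, 4 without adrenal gland column 2 and hypothalamus column 1, and 1 under the 5-fold rule with no test. It ran from 5 (without hypothalamus column 2) to 14 (without liver column 1) with single columns left out. The number of depleted members (0) was 5 with a pseudocount of 0.01, 5 without both liver columns, and 0 to 4 with single columns left out. Between outer medulla and cortex (1), it was 5 with a pseudocount of 1, 3 with no filter, 3 with a filter at 0.5, 5 without both liver columns, 5 with only the columns of these tissues, and 0 to 5 with single columns left out. The number of ratios between forms that differed (2) was 0 once adrenal gland column 2 and hypothalamus column 1 were left out, 0 without both liver columns, and 2 to 3 with single columns left out. Apart from rescaling and the 5-fold rule, the share of all transcripts called was not taken for the alternatives. Whether the members moved more than the whole table is thus not known. The cause of these moves was not tested. Fewer columns or transcripts entered some fits. Direction was followed only for the 9 restricted members and for Mkks between outer medulla and cortex, and none of these changed direction in the alternatives run. For members called only in the F-test it was not followed. Of these, Csnk1d was lowest in hypothalamus as deposited and in outer medulla after rescaling.

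Columns with the same number did not pair: the correlation of their deviations over 15 pairs of tissues ran from -0.0714 to 0.128, and 1 was above 0.1. With the number as a replicate block, 40 members differed among tissues, 9 were restricted (the same 9), 1 was depleted (IL15), 1 differed between outer medulla and cortex, and 2 ratios differed. Where a column was left out, the lone column of that tissue was assumed to vary like the others. Values near the floor of 3 fragments are not distinguishable from 0 at this depth. For a transcript of 1 kb that floor is up to 0.775 FPKM, in liver column 2, and it is lower for longer transcripts.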
